A study of Mus musculus with 12 samples.

Results

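Collagens are the structural proteins of the extracellular matrix, each built from 3 polypeptide chains that wind into a triple helix, and every chain is the product of its own gene. The chains were found in the deposited tables by their gene symbols, and 44 of the 40213 symbols listed had the form of a collagen chain name. They were sorted by the assembly each is known to form: 11 fibrillar chains, 6 basement membrane chains, 6 beaded filament chains, 9 fibril-associated chains, 3 hexagonal network chains, 2 multiplexin chains, 4 transmembrane chains, 1 anchoring fibril chain and 2 chains left unclassed. Of the 44, 39 passed the filter on low counts and were tested. Col2a1, Col9a1, Col9a2, Col22a1 and Col25a1 did not pass it.

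Fibrillar collagens, led by types I and III, make the tensile fibres of the interstitium and are the bulk of the material laid down in a fibrotic kidney. Basement membrane collagen (type IV) forms a sheet-like network under epithelia and endothelia: the Col4a1 and Col4a2 chains make the network found in most basement membranes, while Col4a3, Col4a4 and Col4a5 make the network of the mature glomerular basement membrane. Beaded filament collagen (type VI) forms microfilaments close to cells, and fibril-associated collagens sit on the surface of fibrils made by other chains.

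The samples were kidney tissue of C57BL/6 mice, with 4 RNA libraries in each of 3 groups and a single batch number in the labels. Mice of the colchicine group ate adenine, which brings on chronic kidney disease (CKD), and were injected intraperitoneally with 0.3 mg/kg/day of colchicine, an alkaloid that binds tubulin. The CKD group received adenine and intraperitoneal saline, and the control group a normal diet and intraperitoneal saline. The labels give 2% adenine for every CKD library but 2, 3, 4 and 5% for colchicine replicates 1 to 4, whereas the design text names a single adenine model. Age, sex and length of treatment are not stated in the labels. Titles call the colchicine samples biological replicates and the others only replicates. No animals are named, and the p-values cover only the variation among these libraries.

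Libraries held between 22200909 and 38253100 counts. Counts of 13 mitochondrially encoded genes made up 14.3, 15.8, 18.5 and 21.3% of colchicine libraries 1 to 4, 16.5 to 17.0% of the CKD libraries and 40.8 to 45.9% of the control libraries. Colchicine replicate 1 stood apart from the rest of its group: chi-square distances per gene between it and the other 3 colchicine libraries were 57.2 to 75.4, against 20.7 to 44.7 among those 3. Kidney identity was clear in the control libraries, where the proximal tubule phosphate transporter Slc34a1 averaged 4707 CPM (counts per 1000000 library counts, scaled between libraries by TMM, the trimmed mean of M-values). All CPM values are on that scale except the cutoffs of the low-count filters, which use library totals without TMM. Values by library follow the order of replicates 1 to 4.

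Collagen chains took a larger share of the RNA in both disease groups. They made up 1.13, 1.04, 0.945 and 1.03% of all counts in the colchicine libraries, 0.890, 0.813, 0.867 and 0.746% in the CKD libraries and 0.0894, 0.0856, 0.0913 and 0.0975% in the control libraries. Mitochondrial counts, a larger share in controls, widen that contrast. Of the counts without them, collagen chains made up 1.32, 1.24, 1.16 and 1.31% with colchicine, 1.07, 0.978, 1.05 and 0.893% in CKD and 0.165, 0.148, 0.158 and 0.165% in controls. Their summed level was 8774, 7925, 7281 and 8571 CPM with colchicine, 7014, 6429.97, 7074 and 5905 CPM in CKD and 1526, 1380.3, 1413 and 1519.9 CPM in controls. The 3 groups did not overlap on any of these measures. In whole tissue, a change in the number of cells that make a transcript and a change in its amount per cell cannot be told apart.

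The makeup of that collagen RNA also differed by class. Fibrillar chains were 53.4 ± 3.35% of collagen counts in the colchicine libraries, 50.6 ± 0.372% in the CKD libraries and 23.0 ± 1.14% in the control libraries (mean ± SD, n = 4 each). Basement membrane chains were 21.4 ± 0.910%, 23.7 ± 0.0924% and 57.4 ± 2.16% in the same 3 groups. Control kidney was thus mostly basement membrane collagen by count and both disease groups mostly fibrillar. Beaded filament chains held a near-constant share, at 5.27 ± 0.297% with colchicine, 4.74 ± 0.122% in CKD and 4.45 ± 0.395% in controls. Fibril-associated chains were 7.11 ± 1.41%, 7.09 ± 0.602% and 3.86 ± 0.207%, and multiplexins 11.4 ± 2.00%, 12.3 ± 0.343% and 10.1 ± 0.998% of collagen counts in colchicine, CKD and control libraries. The remaining 4 classes together took the rest, each with a mean share of 1.27% or less in every group. A longer transcript gives more counts, so the shares were also taken per kilobase of coding sequence; fibrillar chains were then 56.6% with colchicine, 53.7% in CKD and 24.5% in controls, and basement membrane chains 19.6, 21.6 and 54.4%.

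**Figure D1:**
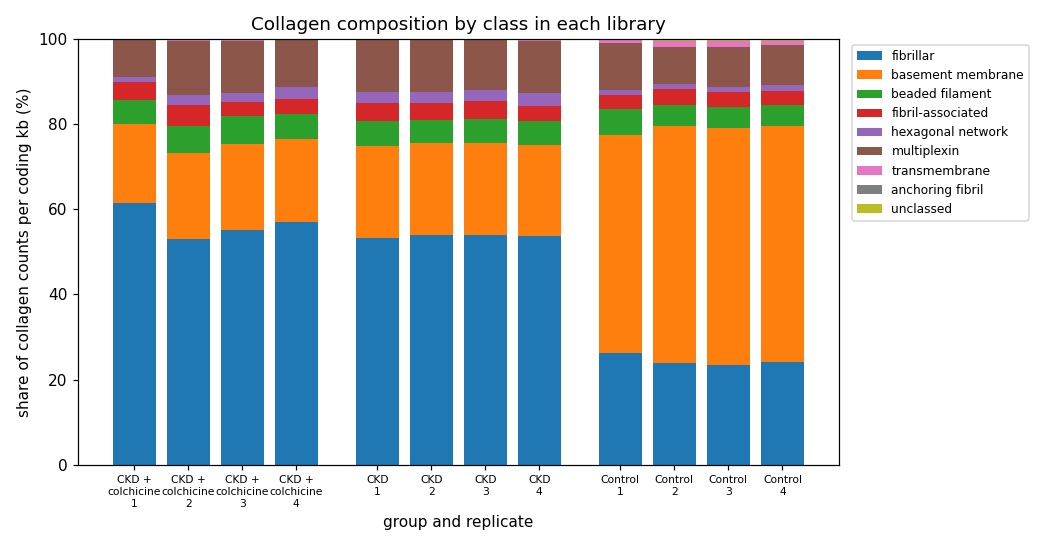
Share of each collagen class in each library, as counts per kilobase of coding sequence (vertical axis, percent of all collagen chains), with colchicine, CKD and control libraries from left to right. Basement membrane chains averaged 54.4% in control libraries, whereas fibrillar chains averaged 56.6% with colchicine and 53.7% in CKD.

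The order of the chains by level changed accordingly. Per coding kilobase, Col1a1 was the highest chain with colchicine (406 ± 36.4 CPM per kb) and in CKD (283 ± 18.6 CPM per kb), followed by Col1a2, Col3a1, Col4a1 and Col4a2 in both groups. In control kidney the highest was Col4a3 (48.6 ± 4.25 CPM per kb), followed by Col4a1, Col4a4, Col4a2 and Col1a2, and Col1a1 was in place 7 with 21.1 ± 3.17 CPM per kb. Col4a3 stood in place 13 with colchicine and 12 in CKD. Col12a1, in place 23 of 44 in controls, was in place 8 in both disease groups. Neighbours in the order were often within each other's spread: in controls Col4a4 at 30.5 to 37.1 and Col4a2 at 30.2 to 35.8 CPM per kb overlapped, as did Col1a2 and Col18a1, and in CKD Col1a2 at 200.1 to 229.9 overlapped with Col3a1 at 179.7 to 238.9 CPM per kb.

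CKD was first compared with control, the contrast that shows the response to adenine. Of the 39 chains tested, 25 were higher and 5 lower in CKD at an adjusted p below 0.05 (edgeR quasi-likelihood F test, Benjamini-Hochberg over 17841 genes), and 9 were not called. Of all genes tested, 67.4% were called, 34.1% higher and 33.4% lower. The median log2 fold change was 1.78 over the tested chains and 0.04 over all genes. The filter's cutoff was 0.367 CPM before TMM scaling, so it cannot be set against the scaled CPM values printed here. Of the 39, 29 were above it in all 4 control libraries. Col11a1, Col6a4, Col6a5, Col9a3, Col8a2, Col10a1, Col17a1 and Col28a1 were above it in no control library and entered the test through the disease groups.

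By class, 7 of 10 tested fibrillar chains were higher in CKD with a class median of 2.97 on the log2 scale. Of the 6 basement membrane chains 2 were higher and 2 lower, with a median of 0.01. Beaded filament chains had 4 higher and 1 lower of 6, with a median of 1.84, and fibril-associated chains 4 higher and 1 lower of 6, with a median of 0.68. The 3 hexagonal network chains, both multiplexins and the anchoring fibril chain were higher, as was 1 of 3 transmembrane chains. Of the unclassed pair, Col28a1 was higher and Col26a1 lower. Among the chains counted as higher here, Col11a1, Col6a5, Col8a2, Col10a1, Col17a1 and Col28a1 passed the filter only through the disease groups. A call of lower in CKD was hardly open to them.

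**Figure D2:**
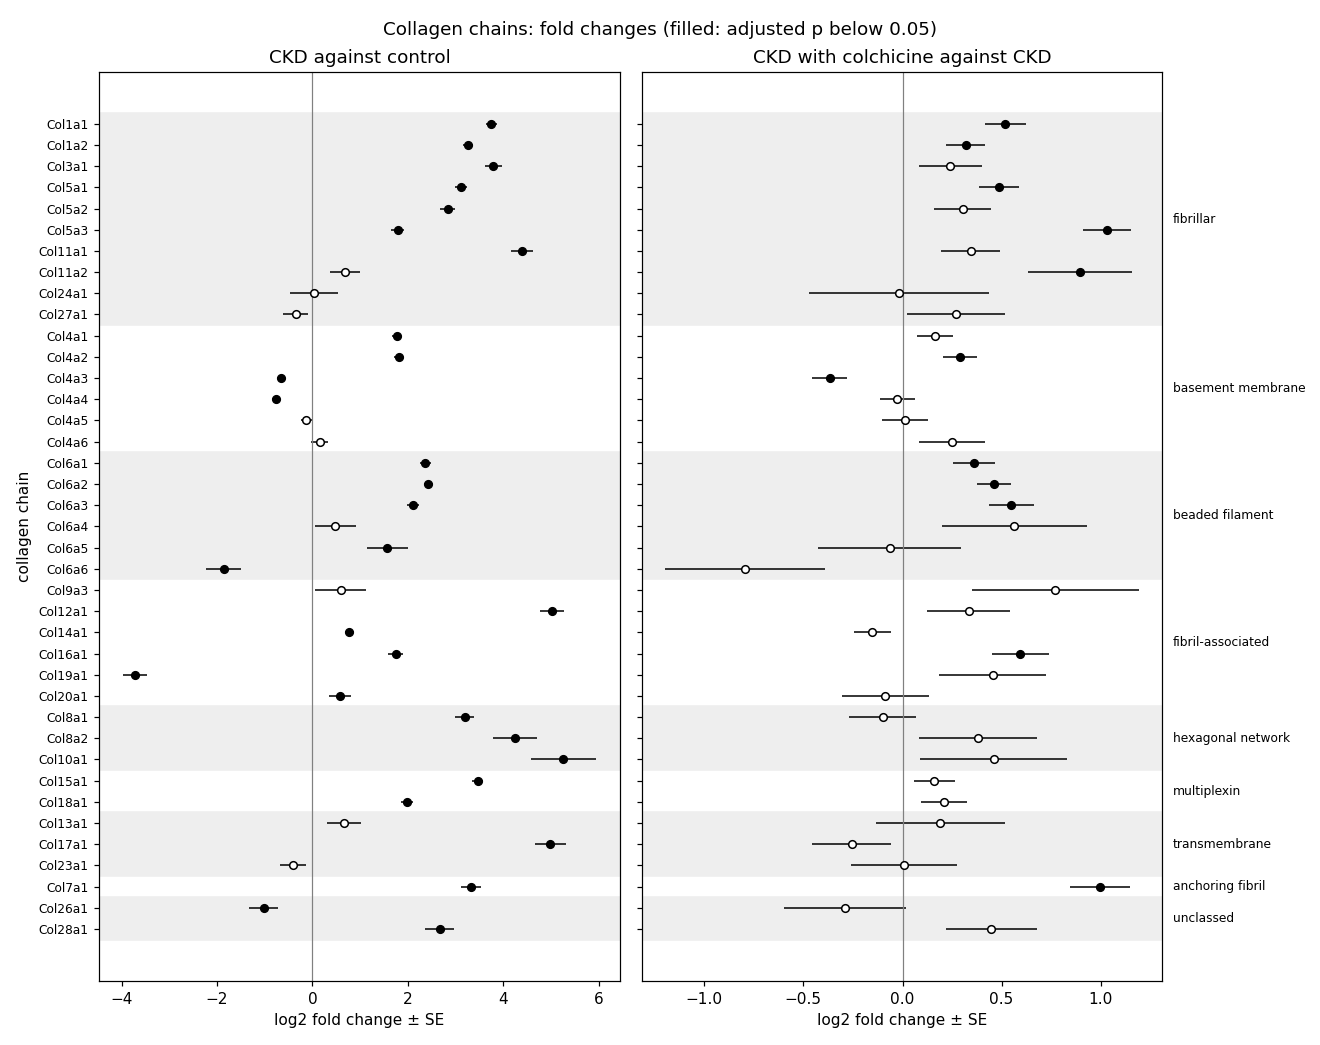
Log2 fold change with its standard error for the 39 tested chains, grouped by class, for CKD against control (left) and CKD with colchicine against CKD (right; the axis is narrower). Filled points had an adjusted p below 0.05; 30 are filled on the left and 12 on the right.

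Among fibrillar chains, the type I pair had the highest levels per coding kilobase in both disease groups. Col1a1, the chain present in 2 copies in the type I helix, had 1845, 1649, 1629 and 1958 CPM in the colchicine libraries, 1295, 1224, 1298 and 1125 CPM in the CKD libraries and 113, 85.9, 83.1 and 86.1 CPM in the control libraries. Col1a2, its partner, had 1261, 1049, 1003 and 1165 CPM with colchicine, 946, 892, 931 and 823 CPM in CKD and 106, 83.0, 85.9 and 102 CPM in controls. For both chains the 3 groups did not overlap. Col1a1 was 13.4-fold higher in CKD than in control (log2 3.75 ± 0.11, SE; edgeR adjusted p = 1.44e-12) and Col1a2 9.54-fold higher (3.25 ± 0.11; edgeR adjusted p = 2.32e-12). Col3a1, the chain of type III reticular fibres, had 1499, 861, 854 and 1144 CPM with colchicine, 970.2, 878, 1049 and 789 CPM in CKD and 70.8, 61.8, 60.8 and 74.3 CPM in controls. It was 13.8-fold higher in CKD than in control (3.78 ± 0.18; edgeR adjusted p = 1.32e-10), and the colchicine and CKD libraries overlapped.

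Type V chains are built into type I fibrils and limit their thickness. Col5a1 had 121, 115, 97.3 and 123 CPM with colchicine, 87.9, 82.1, 84.6 and 71.0 CPM in CKD and 10.1, 7.44, 10.1 and 10.1 CPM in controls. Col5a3, the rarest of them, had 14.8, 18.4, 14.7 and 18.3 CPM with colchicine, 8.44, 8.19, 9.11 and 6.60 CPM in CKD and 1.98, 2.44, 2.46 and 2.49 CPM in controls. For both chains every colchicine library was above every CKD library and every CKD library above every control library. In CKD against control, Col5a1 was 8.64-fold higher, Col5a2 7.13-fold and Col5a3 3.44-fold (edgeR adjusted p = 7.43e-12, 7.68e-10 and 2.69e-08).

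The type XI chains, best known from cartilage, were at far lower levels. Col11a1 had 4.65, 6.57, 4.45 and 4.87 CPM with colchicine, 4.29, 3.70, 3.96 and 4.24 CPM in CKD and 0.175, 0.204, 0.205 and 0.174 CPM in controls, and was 20.9-fold higher in CKD (4.39 ± 0.24; edgeR adjusted p = 2.91e-10). Col11a2 had 1.30, 1.15, 1.29 and 1.22 CPM with colchicine, 0.563, 0.712, 0.774 and 0.613 CPM in CKD and 0.350, 0.255, 0.616 and 0.464 CPM in controls; CKD and control overlapped and its 1.60-fold difference was not called (edgeR adjusted p = 0.0637). Of the 5 cartilage markers, whose sum was 60.02 to 77.2 CPM with colchicine, 61.2 to 68.1 CPM in CKD and 1.28 to 3.11 CPM in controls, the defining Acan and Matn1 were close to absent: the mean of Acan was 0.044 CPM with colchicine, 0.049 CPM in CKD and 0 in controls, and that of Matn1 0.039, 0.016 and 0 CPM. The cartilage-related factor Sox9 averaged 67.1, 63.7 and 1.59 CPM, and its part in the result was not tested. Col2a1, the main cartilage chain, stayed at 0.178 CPM or less in every disease library and at 0.290 CPM or less in controls.

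Of the remaining fibrillar chains, Col27a1, expressed in cartilage and developing epithelia, had 19.7, 49.8, 55.0 and 55.6 CPM with colchicine, 36.3, 33.1, 36.0 and 43.8 CPM in CKD and 49.2, 49.5, 46.6 and 45.9 CPM in controls. Its CKD libraries were all below its control libraries, yet the difference of -0.36 ± 0.25 on the log2 scale was not called (edgeR adjusted p = 0.233). Without colchicine replicate 1, the low library of its group, the same difference was called (log2 -0.36, edgeR adjusted p = 0.000677). Col24a1 lay between 0.0583 and 0.753 CPM in all 12 libraries and was not called (log2 0.03 ± 0.50; edgeR adjusted p = 0.966).

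Among basement membrane chains, the pair of the common network was higher in CKD. Col4a1 had 798, 726, 687 and 830.1 CPM with colchicine, 726, 649.8, 747 and 592 CPM in CKD and 221, 191, 187 and 200.3 CPM in controls. Col4a2, which pairs with it in the common network, had 689, 718, 654 and 769 CPM with colchicine, 598, 578, 630.0 and 507 CPM in CKD and 183, 161, 155 and 164 CPM in controls. Both disease groups were above control in every library for both chains. Col4a1 was 3.39-fold and Col4a2 3.49-fold higher in CKD than in control (log2 1.76 ± 0.10 and 1.80 ± 0.09; edgeR adjusted p = 3.07e-10 and 1.02e-10).

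Col4a3 and Col4a4 of the glomerular network went the other way with TMM scaling, though not with library totals. Col4a3 had 133, 122, 122 and 101 CPM with colchicine, 166, 148, 156 and 146 CPM in CKD and 223, 233, 244 and 273 CPM in controls. Col4a4 had 91.3, 112, 109 and 90.6 CPM with colchicine, 107, 99.6, 107 and 96.1 CPM in CKD and 154, 175, 182 and 187 CPM in controls. Every library of both disease groups was below every control library. Col4a3 was 1.58-fold and Col4a4 1.70-fold lower in CKD than in control (log2 -0.66 ± 0.09 and -0.77 ± 0.09; edgeR adjusted p = 8.96e-06 and 1.43e-06). These falls depend on the scaling: with library totals alone, which shift the median of all genes in this comparison by 1.05, Col4a3 read 0.35 (edgeR adjusted p = 0.00685) and Col4a4 0.24 (edgeR adjusted p = 0.0464), both less than that shift. With mitochondrial counts left out of the totals, Col4a3 was no longer called (edgeR adjusted p = 0.0631), while Col4a4 was still called lower. Col4a5 lay at 36.5 to 49.4 CPM with colchicine, 37.7 to 47.3 CPM in CKD and 38.8 to 54.1 CPM in controls, and neither it nor Col4a6, at 6.24 to 12.0 CPM in all libraries, was called (edgeR adjusted p = 0.361 and 0.475).

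A ratio of 2 chains within a library needs no scaling between libraries. The Col4a3 to Col4a1 count ratio was 0.167, 0.167, 0.177 and 0.122 with colchicine, 0.229, 0.228, 0.208 and 0.247 in CKD and 1.01, 1.22, 1.30 and 1.36 in controls. Both disease groups were below every control library, and every colchicine library was below every CKD library. The mean ratio was 5.34-fold lower in CKD than in control and 1.45-fold lower with colchicine than in CKD. Each difference had an exact two-sided permutation p of 0.0286, the smallest that 4 libraries against 4 allow, and 0.0571 after Benjamini-Hochberg adjustment over the 18 ratio tests made, and no ratio passed 0.05 after adjustment. The Col4a1 to Col4a2 ratio was 1.01 to 1.16 with colchicine, 1.13 to 1.21 in CKD and 1.18 to 1.22 in controls. CKD and control differed by only -0.04 on the log2 scale (exact permutation p = 0.2). With colchicine this ratio was 1.12-fold lower than in control, without overlap (exact permutation p = 0.0286 and 0.0571 adjusted). It was 1.09-fold lower than in CKD, with overlap (exact permutation p = 0.0571 and 0.103 adjusted).

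The 2 pairs are transcribed in opposite directions from neighbouring start sites, and the DNA between the starts of 1 transcript of each gene is shown because, with TMM scaling, one pair was higher and the other lower in CKD (library totals turn the second). On GRCm38.p6 the Col4a1 transcripts on the minus strand of chromosome 8 start at 11312826 and 11312689, and Col4a2 starts at 11312805 on the plus strand; the first Col4a1 transcript overlaps the start of Col4a2, and the interval shown lies between Col4a2 and the second. On chromosome 1, Col4a4 starts at 82586849 on the minus strand, and Col4a3 starts at 82586921 and 82586976 on the plus strand. Sequences are from RefSeq's promoter windows and are written 5′ to 3′ on the strand of the gene named; capitals mark the motifs CCAAT and GGGCGG (the GC box) on either strand, none of which overlap.
Col4a2, from the second Col4a1 start to Col4a2, chr8:11312690-11312804, plus strand: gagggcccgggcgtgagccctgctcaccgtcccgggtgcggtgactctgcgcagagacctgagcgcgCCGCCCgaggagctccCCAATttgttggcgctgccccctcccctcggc
Col4a4, from Col4a4 to Col4a3, chr1:82586850-82586920, minus strand: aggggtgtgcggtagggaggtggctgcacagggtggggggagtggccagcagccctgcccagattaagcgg
The 115 bases between Col4a2 and the second Col4a1 start held 1 CCAAT and 1 GC box, and the 71 bases between Col4a4 and the first Col4a3 start held neither. A match is a description of the letters in the window and not of a factor bound there.

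**Figure D3:**
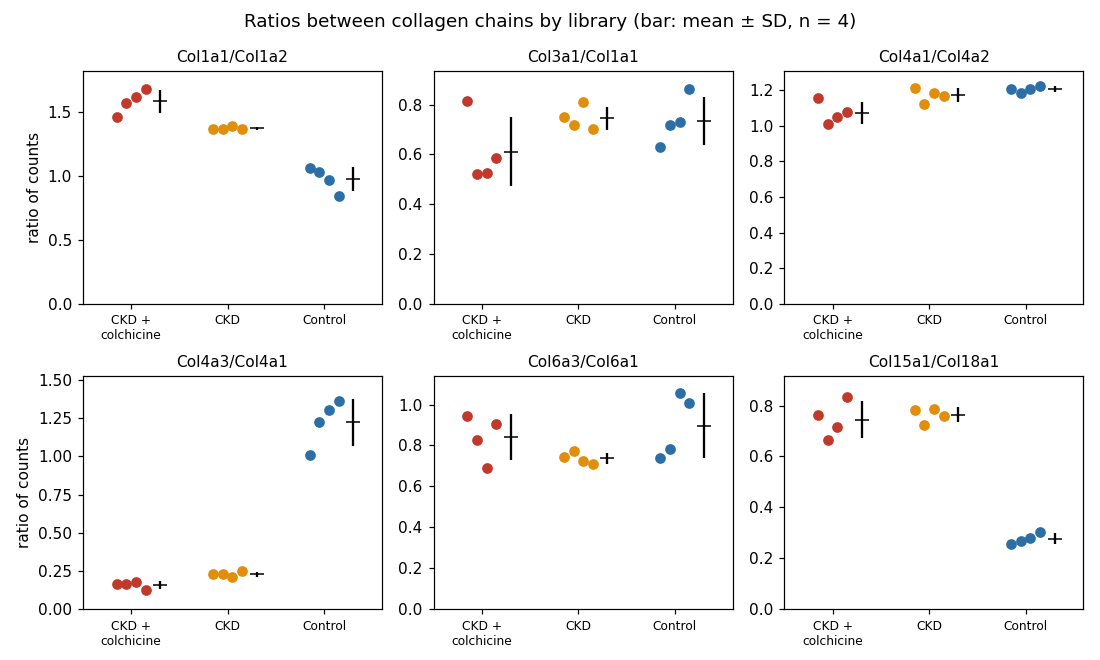
Ratios of counts between pairs of chains in each library (vertical axes start at 0), with colchicine, CKD and control from left to right; bars are mean ± SD of 4 libraries. Col4a3/Col4a1 was 0.122 to 0.177 with colchicine, 0.208 to 0.247 in CKD and 1.01 to 1.36 in controls. Col4a1/Col4a2 lay between 1.01 and 1.22, with every colchicine library below every control library.

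Cell types that hold these networks were read from their markers. The summed level of 5 podocyte markers was 282 to 364 CPM with colchicine, 264 to 331 CPM in CKD and 237 to 273 CPM in controls, with 3 called higher and 1 lower in CKD. Single podocyte markers moved in both directions in CKD against control, with the surface sialomucin Podxl at -0.37 and the actin-binding Synpo at 0.85 on the log2 scale, both called. The sums of 6 endothelial markers, 5 of them lower in CKD, were 477 to 548 CPM with colchicine, 426 to 487 CPM in CKD and 637 to 713 CPM in controls, and those of 6 proximal tubule markers, all lower in CKD, 339 to 642 CPM, 554 to 751 CPM and 7489.5 to 8094 CPM. Of all genes tested in CKD against control, 34.1% were called higher and 33.4% lower. The part of these cell types in the levels of the type IV chains was not tested.

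The other pair ratios separated chains within classes. The Col1a1 to Col1a2 ratio was 1.46 to 1.68 with colchicine, 1.37 to 1.39 in CKD and 0.845 to 1.06 in controls, without overlap between any 2 groups. With colchicine it was 1.15-fold higher than in CKD, and in CKD 1.41-fold higher than in control (exact permutation, p = 0.0286 each and 0.0571 adjusted). The Col3a1 to Col1a1 ratio overlapped in all groups, at 0.522 to 0.812 with colchicine, 0.702 to 0.808 in CKD and 0.629 to 0.863 in controls, and so did Col6a3 to Col6a1. The highest Col3a1 to Col1a1 value with colchicine, 0.812, was that of replicate 1.

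The beaded filament chains that make up common type VI collagen rose together. Col6a1 had 157, 166, 159 and 162 CPM with colchicine, 139, 116, 131 and 115 CPM in CKD and 31.3, 21.7, 20.6 and 23.5 CPM in controls. Col6a2 had 120.2, 128, 131 and 139 CPM with colchicine, 99.9, 89.9, 102 and 83.9 CPM in CKD and 20.4, 16.5, 17.6 and 15.7 CPM in controls. Col6a3, the longest of them, had 148, 137, 109 and 146 CPM with colchicine, 103, 89.2, 94.9 and 82.0 CPM in CKD and 23.1, 17.1, 21.8 and 23.7 CPM in controls. None of the 3 chains overlapped between any 2 groups. They were 5.15-, 5.36- and 4.32-fold higher in CKD than in control (edgeR adjusted p = 1.04e-10, 1.15e-11 and 6.33e-10).

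Of the rarer beaded filament chains, Col6a5 was 2.97-fold higher in CKD (edgeR adjusted p = 0.00435) at a mean below 2 CPM in every group. Col6a6 had 0.190, 0.141, 0.282 and 0.104 CPM with colchicine, 0.352, 0.392, 0.357 and 0.204 CPM in CKD and 1.22, 1.02, 0.822 and 1.68 CPM in controls. It was 3.63-fold lower in CKD than in control (log2 -1.86 ± 0.37; edgeR adjusted p = 0.000361), and no disease library reached a control library. Col6a6 passed the filter with the help of the control group: 4 control, 3 CKD and 0 colchicine libraries were above the cutoff. Col6a4 was not called (log2 0.48 ± 0.43; edgeR adjusted p = 0.347).

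Fibril-associated chains spanned the widest range of the classes, with the log2 fold change in CKD against control running from -3.72 for Col19a1 to 5.03 for Col12a1. Col12a1, which binds the surface of type I fibrils and is found in tissue under tension, had 629, 589.7, 327 and 429 CPM with colchicine, 443, 377, 451 and 296 CPM in CKD and 9.56, 9.73, 14.3 and 14.7 CPM in controls. It was 32.6-fold higher in CKD than in control (5.03 ± 0.25; edgeR adjusted p = 1.04e-09). Col14a1, a close relative of Col12a1, had 40.9, 42.9, 40.9 and 51.9 CPM with colchicine, 54.5, 42.9, 51.4 and 47.3 CPM in CKD and 29.0, 29.5, 26.0 and 30.1 CPM in controls. Both chains were above control in every disease library, though Col14a1 was only 1.71-fold higher in CKD (edgeR adjusted p = 3.71e-06).

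Col16a1, found near fibrils and basement membranes, had 27.3, 45.7, 42.5 and 40.9 CPM with colchicine, 28.6, 25.4, 26.0 and 23.7 CPM in CKD and 9.27, 8.25, 7.05 and 6.20 CPM in controls. It was 3.36-fold higher in CKD than in control (edgeR adjusted p = 1.15e-07). Col19a1, a chain of basement membrane zones, had 0.570, 0.636, 0.665 and 0.417 CPM with colchicine, 0.352, 0.285, 0.417 and 0.613 CPM in CKD and 4.95, 6.77, 5.55 and 5.16 CPM in controls. Its 13.2-fold lower level in CKD (-3.72 ± 0.26; edgeR adjusted p = 4.35e-09) was the lowest fold change among the tested chains, and it was called lower under each scaling tried. Col20a1 was 1.49-fold higher in CKD with overlapping groups (edgeR adjusted p = 0.0425). That call was lost without control replicate 1, 2 or 4, CKD replicate 1 or 3, or colchicine replicate 4, with adjusted p reaching 0.131.

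The type IX chains were near the limit of detection, Col9a1 with counts in 1 colchicine library and 1 CKD library and Col9a3 at 0.0580 to 0.584 CPM. Col9a2 had 20 counts in all over the colchicine libraries, 3 over the CKD libraries and 0 over the control libraries. Its level with colchicine was 5.26 times that in CKD (95% exact binomial interval 1.56 to 27.6, counting error only) and at least 2.90-fold higher than in controls, set against 3 counts over the group. Col22a1 had 48 counts with colchicine, 27 in CKD and 2 in controls, and in CKD its ratio to control was 7.45 (1.87 to 64.7, counting error only).

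Hexagonal network chains are known from the lattices of the cornea and vessel wall. Col8a1 had 45.7, 76.3, 67.2 and 98.8 CPM with colchicine, 74.7, 74.7, 81.4 and 77.8 CPM in CKD and 8.63, 7.44, 7.60 and 10.2 CPM in controls. Col8a2, its partner, had 2.64, 8.52, 5.00 and 7.48 CPM with colchicine, 4.96, 3.42, 5.33 and 4.38 CPM in CKD and 0.175, 0.204, 0.479 and 0.116 CPM in controls. Every disease library was above every control library for both, and colchicine replicate 1 was the lowest of its group for both. In CKD against control, Col8a1 was 9.11-fold and Col8a2 19.0-fold higher (edgeR adjusted p = 3.94e-09 and 1.03e-06). Col10a1, a chain of hypertrophic cartilage, had 379 counts over the colchicine libraries, 224 over the CKD libraries and 3 over the control libraries. The CKD level was 41.2 times that in control (95% exact binomial interval 13.9 to 201, counting error only; edgeR adjusted p = 6.42e-06).

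Multiplexins sit at basement membrane zones, and the tail of Col18a1 is the source of endostatin. Col15a1 had 329.6, 413, 386 and 441 CPM with colchicine, 382, 334, 367 and 320.4 CPM in CKD and 35.7, 26.8, 30.5 and 34.7 CPM in controls. Col18a1 had 431, 622, 541 and 528 CPM with colchicine, 487, 461, 466 and 421 CPM in CKD and 140.5, 101, 109 and 115 CPM in controls. Disease and control libraries did not overlap for either chain. Col15a1 was 11.0-fold and Col18a1 3.95-fold higher in CKD (edgeR adjusted p = 2.84e-12 and 9.78e-10), so that their ratio was 0.663 to 0.836 with colchicine, 0.725 to 0.789 in CKD and 0.254 to 0.303 in controls. The CKD ratio was 2.77-fold that of control (exact permutation, p = 0.0286 and 0.0571 adjusted).

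Among transmembrane chains, Col17a1, the collagen of hemidesmosomes that fix epithelial cells to the basement membrane, had 3.10, 2.68, 3.06 and 2.47 CPM with colchicine, 3.02, 3.78, 2.77 and 3.97 CPM in CKD and 0.117, 0.0509, 0.205 and 0.0580 CPM in controls. It was 31.7-fold higher in CKD than in control (4.99 ± 0.33; edgeR adjusted p = 2.43e-09). Of 5 urothelial markers, 2 were called higher and 1 lower in CKD, against 34.1 and 33.4% of all genes tested. The markers summed to 65.8 to 85.6 CPM with colchicine, 90.7 to 110.4 CPM in CKD and 14.6 to 29.3 CPM in controls. Of these the epithelial keratin Krt20 averaged 48.5 CPM with colchicine, 72.2 CPM in CKD and 0.741 CPM in controls, while the urothelial plaque protein Upk3a averaged 4.90, 5.68 and 5.22 CPM; their part in the level of Col17a1 was not tested. Col23a1 had 2.72, 2.99, 4.53 and 2.82 CPM with colchicine, 3.55, 2.39, 2.20 and 4.88 CPM in CKD and 2.80, 5.20, 5.20 and 4.17 CPM in controls. Its groups overlapped and it was not called (log2 -0.41; edgeR adjusted p = 0.201), although without CKD replicate 4 it read -0.68 with an adjusted p of 0.0386. Col13a1, known from the neuromuscular junction, was not called (log2 0.66 ± 0.36; edgeR adjusted p = 0.121), and Col25a1 stayed at 0.424 CPM or less.

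Col7a1 forms the anchoring fibrils that tie basement membrane to the tissue below it, best known in skin. It had 16.2, 25.4, 16.3 and 16.7 CPM with colchicine, 9.95, 8.76, 10.2 and 8.50 CPM in CKD and 0.758, 0.713, 1.16 and 1.16 CPM in controls. The 3 groups did not overlap. Col7a1 was 9.96-fold higher in CKD than in control (3.32 ± 0.21; edgeR adjusted p = 1.80e-09).

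Of the unclassed chains, Col28a1 had 4.07, 2.78, 2.64 and 3.13 CPM with colchicine, 1.93, 2.42, 2.98 and 1.90 CPM in CKD and 0.350, 0.560, 0.205 and 0.290 CPM in controls. Col26a1 had 0.815, 0.424, 0.745 and 0.661 CPM with colchicine, 0.739, 0.784, 0.744 and 0.964 CPM in CKD and 0.874, 1.94, 2.05 and 1.74 CPM in controls. In CKD, Col28a1 was 6.35-fold higher and Col26a1 2.03-fold lower than in control (edgeR adjusted p = 1.35e-06 and 0.00821). The low control value of Col26a1, 0.874 CPM in replicate 1, overlapped with CKD, and with library totals its log2 fold change was -0.03 (edgeR adjusted p = 0.942).

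**Figure D4:**
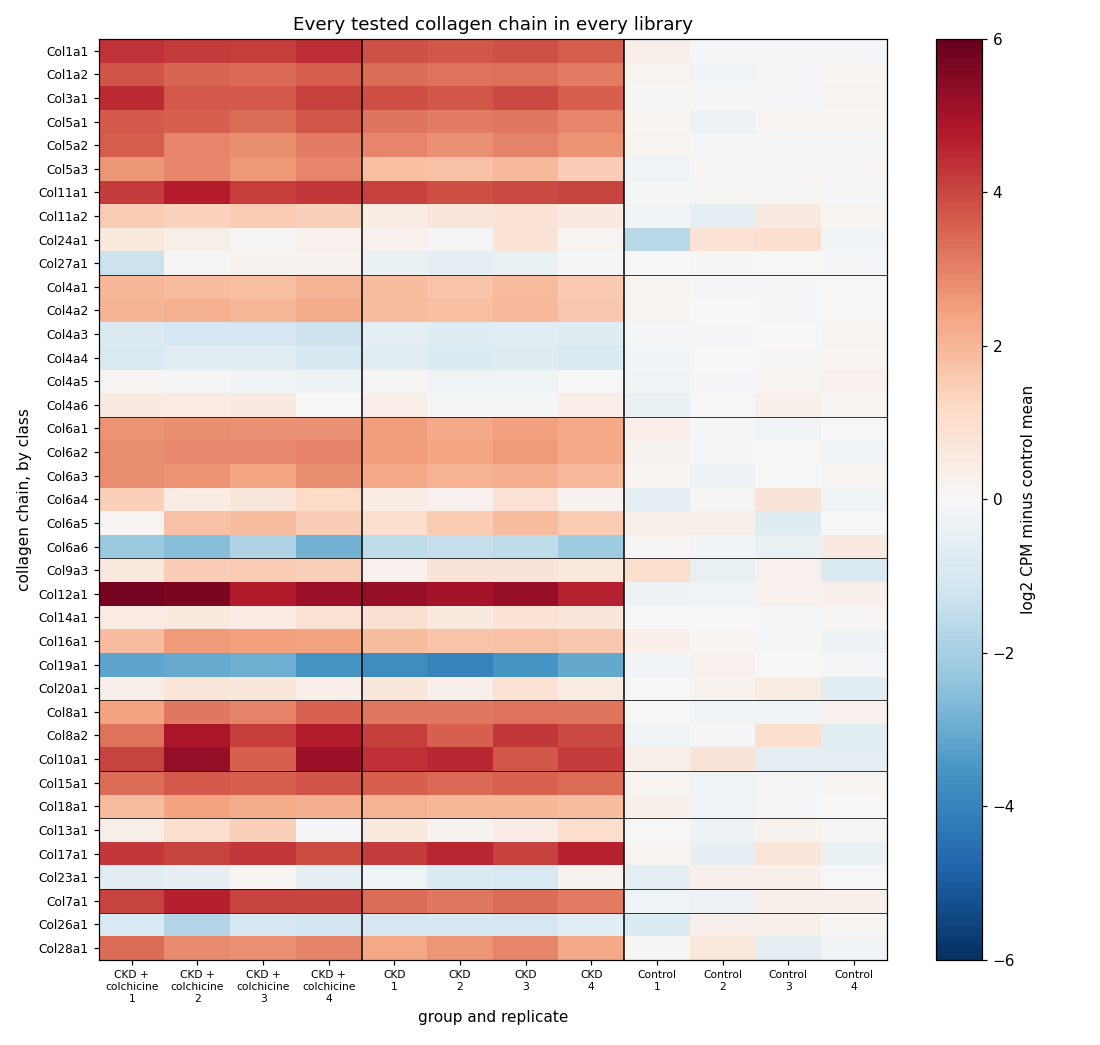
Level of the 39 tested chains in each library as log2 CPM minus the mean of the 4 control libraries, with chains down the page by class and colchicine, CKD and control libraries from left to right. Red is above and blue below the control mean; Col12a1, Col10a1 and Col17a1 are among the reddest rows and Col19a1 is the bluest.

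Markers of matrix-producing and immune cells differed between the groups in the same libraries. Summed fibroblast and pericyte markers were 633 to 763 CPM with colchicine, 653 to 740.1 CPM in CKD and 212 to 239.6 CPM in controls, and 7 of 8 were called higher in CKD against control. Smooth muscle and myofibroblast markers summed to 609.7 to 805 CPM, 498 to 586 CPM and 256 to 325 CPM, with 3 of 5 higher and 2 lower in CKD. Macrophage markers summed to 555 to 759 CPM, 725 to 743 CPM and 77.9 to 90.8 CPM, with 6 of 6 higher in CKD. Of all genes tested in CKD against control, 34.1% were called higher and 33.4% lower. Sums were at most 42.3 CPM in every library for Schwann cell, adipocyte and adrenal cortex markers. How much of the collagen differences goes with these cells was not tested.

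Colchicine was then set against CKD, groups that differ in the drug and, by the labels, in the adenine percentage. As labelled, drug and adenine percentage cannot be told apart in colchicine replicates 2 to 4. Of the 39 tested chains, 11 were higher and 1 lower with colchicine at an adjusted p below 0.05 (edgeR), where 15% of all genes tested were called, 6.79% higher and 8.24% lower. The median log2 fold change was 0.29 over the chains and 0.03 over all genes, and 29 of the 39 chains had a positive one. Fibrillar chains had 5 of 10 higher (Col1a1, Col1a2, Col5a1, Col5a3 and Col11a2) and beaded filament chains 3 of 6 (Col6a1, Col6a2 and Col6a3). Of the fibril-associated chains Col16a1 was higher, of the basement membrane chains Col4a2 was higher and Col4a3 lower, and Col7a1 was higher. No hexagonal network, multiplexin, transmembrane or unclassed chain was called.

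The count of higher chains moved with single libraries. It was 14 without colchicine replicate 1, 6 without colchicine replicate 2 and 7 without colchicine replicate 4 or CKD replicate 2, 3 or 4. With the labelled adenine percentage as a covariate and the colchicine effect read at 2%, 5 chains were higher and 1 lower. The 5 calls shared with the main fit did not include Col4a3, the chain called lower in the main fit. With colchicine replicate 1, the library labelled 2% adenine, as the colchicine group on its own, 8 were higher and 2 lower. That library has no replicate, so wherever it is set alone against CKD the spread comes from the other groups and it is assumed to vary as they do. Against a fold change of 1.5, edgeR called 0 chains either way (3 higher and 0 lower at an unadjusted p below 0.05).

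The chains called higher with colchicine in all 12 fits that left out 1 library, and under every other setting except the 1.5-fold threshold, were Col1a1, Col5a1, Col5a3, Col6a3 and Col7a1. Col5a3 was 2.05-fold higher (log2 1.03 ± 0.12; edgeR adjusted p = 0.000262) and Col7a1 1.99-fold higher (1.00 ± 0.15; edgeR adjusted p = 0.00167). Without colchicine replicate 2, its highest library, Col7a1 read 0.81 (edgeR adjusted p = 0.00295). Col6a3 was 1.46-fold (0.55 ± 0.11), Col1a1 1.43-fold (0.52 ± 0.10) and Col5a1 1.40-fold (0.49 ± 0.10) higher, with edgeR adjusted p of 0.00762, 0.00643 and 0.00817.

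Col6a2 was 1.38-fold higher with colchicine (0.46 ± 0.09; edgeR adjusted p = 0.00543) and was called in each fit that left out 1 library and in 10 of 12 other settings; with the adenine covariate the adjusted p was 0.0728, and with the library labelled 2% alone 0.117. Col16a1 was 1.51-fold higher (0.59 ± 0.14; edgeR adjusted p = 0.0151), but colchicine replicate 1, at 27.3 CPM, lay within the CKD range. Taken on its own, with the spread of the other groups, that library differed from CKD by 0.07 (edgeR adjusted p = 0.873), and without colchicine replicate 2 the chain missed the threshold (edgeR adjusted p = 0.0541).

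The remaining 4 calls were near the threshold. Col1a2 was 1.25-fold (edgeR adjusted p = 0.0420), Col4a2 1.22-fold (0.0343), Col6a1 1.28-fold (0.0369) and Col11a2 1.86-fold higher (0.0357). Leaving out CKD replicate 2, 3 or 4 or colchicine replicate 2 or 4 ended each of these calls, and for Col1a2, Col4a2 and Col11a2 so did CKD replicate 1. Col1a2 was also lost without control replicate 3, and Col6a1 and Col11a2 without colchicine replicate 3. The highest adjusted p among these fits was 0.114 for Col1a2, 0.104 for Col4a2, 0.102 for Col6a1 and 0.101 for Col11a2. Under the other settings except the 1.5-fold threshold, Col1a2 was called in 8 of 12 with adjusted p up to 0.105, Col4a2 in 6 of 12 (up to 0.283), Col6a1 in 9 of 12 (up to 0.378) and Col11a2 in 7 of 11 (up to 0.280).

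Col4a3 was the chain called lower with colchicine, 1.29-fold below CKD (log2 -0.37 ± 0.09; edgeR adjusted p = 0.0160), and its colchicine and CKD libraries did not overlap. Without CKD replicate 1 or CKD replicate 3 the adjusted p was 0.0545 and 0.0521. Read at the 2% adenine label the difference was -0.20 (edgeR adjusted p = 0.340), and for the unreplicated colchicine library labelled 2% alone -0.22 (0.348). Col4a4, its partner, differed by -0.03 ± 0.09 (edgeR adjusted p = 0.855) and Col4a1 by 0.16 ± 0.09 (0.228).

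**Figure D5:**
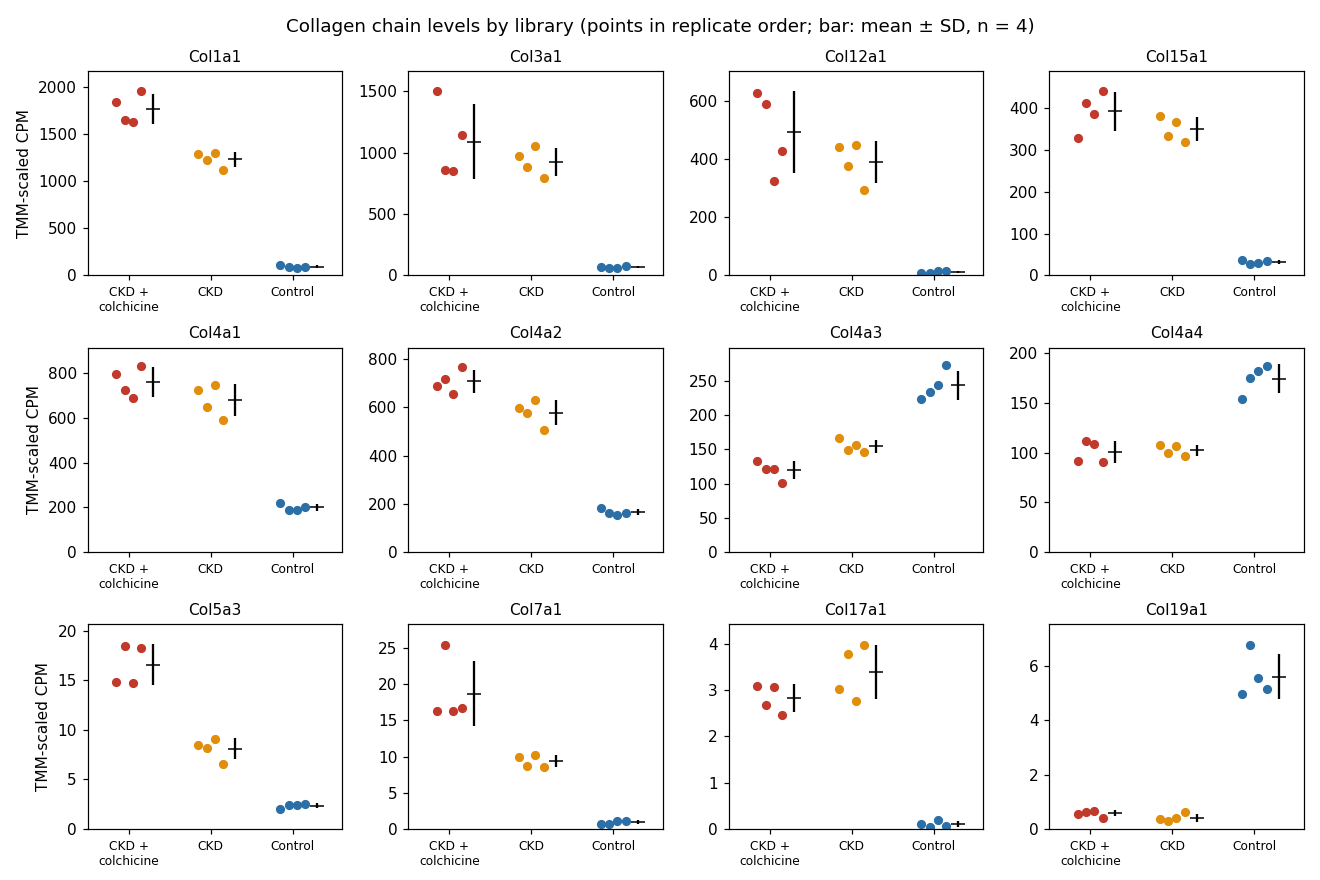
TMM-scaled CPM of 12 chains in each library (vertical axes start at 0), points in replicate order with colchicine, CKD and control from left to right; bars are mean ± SD of 4 libraries. Col1a1, Col5a3 and Col7a1 show 3 separate levels with the colchicine libraries highest, and Col4a3 shows 3 separate levels with the colchicine libraries lowest.

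Several chains whose colchicine libraries spread widely did not pass the test between colchicine and CKD. Col3a1 differed by 0.24 ± 0.16 (edgeR adjusted p = 0.300), with colchicine replicate 1 at 1499 CPM and the other 3 at 854 to 1144 CPM. Without that library the difference was 0.05 (edgeR adjusted p = 0.787), and for that library alone, an arm of 1 with the spread of the other groups, it was 0.70 (0.00445). Col5a2 behaved alike, with 268, 166, 152 and 183 CPM with colchicine, 164, 146, 171 and 142 CPM in CKD and 24.7, 20.9, 21.0 and 20.8 CPM in controls, and a difference of 0.30 ± 0.14 (edgeR adjusted p = 0.156) between colchicine and CKD, which was 0.10 (0.396) without colchicine replicate 1 and 0.78 (0.0004) for that unreplicated library alone. For Col27a1 the difference was 0.27 ± 0.25 (edgeR adjusted p = 0.468), and without colchicine replicate 1 it was 0.51 (0.000325). For Col8a1 it was -0.10 ± 0.17 (edgeR adjusted p = 0.704), and for colchicine replicate 1 alone, again unreplicated, -0.76 (0.00131). Col12a1 differed by 0.33 ± 0.21 (edgeR adjusted p = 0.281), Col15a1 by 0.16 ± 0.10 (0.293) and Col18a1 by 0.21 ± 0.11 (0.214); without colchicine replicate 1 Col18a1 read 0.29 and was called (edgeR adjusted p = 0.0327).

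Marker genes beside these chains moved less evenly. With colchicine against CKD, 6.79% of all genes tested were called higher and 8.24% lower. Of 8 fibroblast and pericyte markers 2 were called higher, the pericyte receptor Pdgfrb at log2 0.36 and Meg3 at 0.76. The log2 fold change was negative for 5 of the 8, among them the matrix proteoglycan Dcn at -0.32, which was not called. Smooth muscle and myofibroblast markers had 3 of 5 higher, including Acta2 at 0.39, and macrophage markers 3 of 6 lower, including Adgre1 at -0.67. Their part in the collagen differences was not tested.

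Upstream DNA is shown for 2 fibrillar chains that were higher in CKD and with colchicine, as the 250 bases before the RefSeq start on GRCm38.p6, 5′ to 3′ on the strand of the gene. Capitals mark CCAAT and GGGCGG on either strand, and none overlap.
Col1a2, chr6:4505368-4505617, plus strand: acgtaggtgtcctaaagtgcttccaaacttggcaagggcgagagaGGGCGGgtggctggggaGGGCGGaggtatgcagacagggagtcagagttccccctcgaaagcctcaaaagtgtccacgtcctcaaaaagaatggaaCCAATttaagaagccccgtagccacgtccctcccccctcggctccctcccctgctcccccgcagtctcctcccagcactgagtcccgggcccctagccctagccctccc
Col5a3, chr9:20815068-20815317, minus strand: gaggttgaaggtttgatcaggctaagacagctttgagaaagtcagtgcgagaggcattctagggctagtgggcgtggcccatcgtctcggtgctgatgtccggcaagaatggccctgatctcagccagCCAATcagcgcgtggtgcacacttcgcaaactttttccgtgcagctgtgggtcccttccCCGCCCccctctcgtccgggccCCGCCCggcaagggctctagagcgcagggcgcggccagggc
Each held 1 CCAAT and 2 GC boxes, and neither held TATAAA. In windows of 300 bases, from 250 before to 50 after the start, 35 of the 44 chains had an entry, with 38 windows. CCAAT was in 34.2% of the collagen windows and 37.4% of all 32851 windows, TATAAA in 13.2 and 13.6%, and GGGCGG in 60.5 and 35.7%, each searched on both strands. Col1a1, Col2a1, Col5a2, Col4a3, Col9a3, Col12a1, Col14a1, Col22a1 and Col26a1 were not in the table.

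Colchicine was last compared with control, in which 28 of the 39 chains were higher and 5 lower (edgeR), where 70.5% of all genes tested were called, 37.1% higher and 33.4% lower. All 8 tested chains above the filter's cutoff in no control library were among the 28 higher. Without colchicine replicate 1 the counts were 29 higher and 5 lower. This comparison shares its libraries with the other 2 and is given as values side by side. Col1a1 was 19.3-fold higher than control with colchicine and 13.4-fold higher in CKD without it, and Col12a1 41.0-fold and 32.6-fold. Col7a1 was 19.9-fold higher with colchicine against 9.96-fold in CKD, and Col5a3 7.04-fold against 3.44-fold. Col4a3 was 2.04-fold lower than control with colchicine and 1.58-fold lower in CKD, and Col4a4 1.73-fold and 1.70-fold lower. Col19a1 was 9.63-fold lower than control with colchicine (log2 -3.27 ± 0.24; edgeR adjusted p = 8.99e-09) and 13.2-fold lower in CKD.

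Collagen chains are hydroxylated, folded, exported, trimmed, crosslinked and broken down by other proteins, and 51 genes of these steps were followed. Of the 49 tested, 33 were higher and 5 lower in CKD than in control (edgeR), with a median log2 fold change of 1.00, where 34.1% of all genes tested were higher and 33.4% lower. Among those counted as higher, P4ha3 and Mmp8 had only 8 and 9 counts over the control libraries. A call of lower was hardly open to them. Itga11, Mmp9 and Adamts3, also counted as higher, had 23, 26 and 27 counts there. The shares called in either direction among modification genes (68.8%) and folding and export genes (66.7%) were near the 67.4% of all genes. All 6 tested crosslinking genes were called, 5 higher and 1 lower, and so were all 7 tested receptors, each higher. Uptake and breakdown genes had 6 of 7 higher, those with the smallest p being the membrane collagenase Mmp14 at 17.8-fold and the gelatinase Mmp2 at 23.7-fold (edgeR adjusted p = 7.38e-13 and 1.84e-12). Propeptide removal had 4 of 7 higher, among them Bmp1, the C-proteinase of fibrillar procollagen, at 9.82-fold and Adamts2, the N-proteinase, at 12.0-fold. Prolyl and lysyl modification had 8 higher and 3 lower of 16, with the prolyl isomerase Fkbp10 at 5.87-fold and P3h3 at 3.37-fold, and folding and export had 3 higher and 1 lower of 6, with the collagen chaperone Serpinh1 at 3.16-fold and the coat protein Sec24d at 1.76-fold. The crosslinking oxidases Loxl1 and Loxl3 were 3.90- and 4.82-fold higher, and the collagen receptors Ddr2 and Lair1 3.72- and 9.73-fold.

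With colchicine against CKD, 9 of the 49 processing genes were called higher and 0 lower, where 6.79% of all genes were higher and 8.24% lower (edgeR; 3 lower at an unadjusted p below 0.05, and 3 by DESeq2 and 2 by limma-voom after adjustment). Serpinh1 averaged 332 ± 45.1 CPM with colchicine, 244 ± 18.6 CPM in CKD and 77.1 ± 10.8 CPM in controls (SD, n = 4 each), and was 1.36-fold higher with colchicine than in CKD (edgeR adjusted p = 0.0187). Mmp14 averaged 444 ± 66.1, 294 ± 9.88 and 16.5 ± 1.72 CPM and was 1.51-fold higher with colchicine (edgeR adjusted p = 0.00286). The procollagen proteinases Adamts2 and Bmp1 were 1.40- and 1.30-fold higher (0.0148 and 0.0257), Creb3l1, a transcription factor of collagen secretion, 1.47-fold (0.00696), and Crtap, part of the prolyl 3-hydroxylase complex, 1.30-fold (0.00286). Fkbp10 was 1.42-fold, P3h3 1.27-fold and Loxl1 1.24-fold higher (0.0177, 0.0258 and 0.0437). Without colchicine replicate 2 the count fell to 3, without CKD replicate 3 or CKD replicate 4 it was 5, and without colchicine replicate 1 it was 12 higher and 7 lower.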

How the data were processed

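Per the labels' protocols, kidney RNA was extracted with RNAiso Plus and sequenced as CORALL V2 libraries. The submitters' processing notes name fastp, STAR, Salmon and the build GRCm39, without versions or settings. One whole number per gene symbol was deposited for each library, taken as the authors' estimated counts (expected counts) already rounded; all 28 values of 1000000 or more were multiples of 10. No source used here says whether molecular identifiers were counted, and intervals cover counting error only.

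Counts were fitted with edgeR 4.0.16 in R 4.3.3: filterByExpr (minimum count 10) kept 17841 genes, libraries were scaled by TMM, and 3 group means were fitted to all 12 libraries by the robust quasi-likelihood model. Genes were called at a Benjamini-Hochberg adjusted p below 0.05, two-sided. Ratios were tested by exact permutation over 70 arrangements. Coding length is the longest coding sequence in GENCODE on GRCm38. The model was tested on simulated counts with 200 changed genes of 17841: for CKD against control 44, 76.5 and 86.5% of genes changed 1.5-, 2- and 4-fold were recovered, and for colchicine against CKD 47, 74 and 92%. Alternatives used DESeq2 1.42.0, limma-voom (limma 3.58.1), other scalings, filters and thresholds, the adenine label, a replicate block and leaving out each library.

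The chains, classes, processing and marker lists were chosen with earlier results of these data known. Values by library are given for the 2 highest chains of each class, the chains called with colchicine against CKD and those lower in CKD; further chains were added after their values were seen. Of the processing list, the 2 smallest p per role and those called with colchicine are named. Of the marker lists, 1 gene is not reported here and is left out of its list's sum and counts.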

Additional observations from a re-analysis of the deposited data

Results flagged for a closer look

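In 9 of the 117 sets of 4 libraries (39 chains in 3 groups), 1 library lay far from the other 3 by Dixon's criterion, which chance gives in about 1 set in 20. In the colchicine group, Col27a1 was low in replicate 1 at 19.7 CPM, against 49.8 to 55.6 CPM in the others, and Col9a3 was low there at 0.272 CPM, against 0.557 to 0.584 CPM. Col7a1 was high in colchicine replicate 2 at 25.4 CPM, against 16.2 to 16.7 CPM, Col23a1 high in replicate 3 at 4.53 CPM, against 2.72 to 2.99 CPM, and Col4a6 low in replicate 4 at 8.45 CPM, against 11.5 to 12.0 CPM. In the control group, replicate 1 was high for Col1a1 at 113 CPM (83.1 to 86.1 CPM in the others) and for Col5a2 at 24.7 CPM (20.8 to 21.0 CPM), and low for Col5a3 at 1.98 CPM (2.44 to 2.49 CPM). Control replicate 2 was low for Col5a1 at 7.44 CPM, against 10.1 CPM in each of the others.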

How the results depend on the processing

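For CKD against control, 24 to 34 chains were higher under the settings tried, and the lower count was 2 with library totals, 3 without mitochondrial counts in the totals, with a mean CPM of at least 1 and at a 1.5-fold threshold, and 5 or 6 when 1 library was left out. Colchicine against control had 2 lower with library totals and 3 with a mean CPM of at least 1. For colchicine against CKD, higher chains numbered 0 at the 1.5-fold threshold, 5 with the adenine covariate and 6 to 14 when 1 library was left out; lower chains numbered 0 at that threshold, 2 with the library labelled 2% adenine alone and 0 to 1 when 1 library was left out. The replicate block gave 8 higher and 1 lower there; same-numbered libraries correlated at -0.28 to 0.19, so numbers were not taken as pairs.

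Processing genes, whose alternatives were chosen after seeing the data, had 0, 3 and 2 lower in CKD against control with library totals, totals without mitochondrial counts and the 1.5-fold threshold, and 0, 3 and 3 lower in colchicine against control, where leaving out 1 library gave 4 to 8. In colchicine against CKD they had 3 lower with DESeq2, 2 with limma-voom, 1 with RLE scaling or the 8 libraries alone, and 0 to 7 when 1 library was left out; 0 were higher at the 1.5-fold threshold (1 unadjusted), 5 with the library labelled 2% alone and 3 to 12 when 1 library was left out.

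Log2 values that changed sign were, in CKD against control with library totals, Col23a1 0.59, Col27a1 0.66, Col4a3 0.35, Col4a4 0.24 and Col4a5 0.88; without mitochondrial counts, Col23a1 0.056, Col27a1 0.11 and Col4a5 0.34; and with upper-quartile scaling, Col4a5 0.010. These 3 scalings shift the median of all genes by 1.05, 0.50 and 0.17. In colchicine against control, library totals gave Col4a3 0.0091 and Col4a4 0.24. In colchicine against CKD, Col4a4 read 0.039, 0.0015 and 0.014 under the same upper-quartile, total and mitochondria-free scalings; the adenine covariate gave Col15a1 -0.018 and Col27a1 -0.45; and the library labelled 2% alone gave Col15a1 -0.10, Col18a1 -0.10 and Col27a1 -0.93. When 1 library was left out, Col24a1 ran from -0.34 to 0.37 in CKD against control, and Col4a4 from -0.081 to 0.015 and Col8a1 from -0.30 to 0.062 in colchicine against CKD. Log2 pair ratios then ran from -0.049 to 0.10 for Col3a1/Col1a1 in CKD against control, from -0.10 to 0.011 for Col15a1/Col18a1 in colchicine against CKD and from -0.17 to 0.0063 for Col6a3/Col6a1 in colchicine against control.

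Per coding kilobase, class shares in colchicine, CKD and control libraries were 56.6, 53.7 and 24.5% for fibrillar, 19.6, 21.6 and 54.4% for basement membrane and 6.15, 5.62 and 5.22% for beaded filament chains. Beyond the scalings above, the cause of these moves was not tested. With 4 libraries a group, 47% of simulated 1.5-fold changes were recovered for colchicine against CKD, over genes of all levels. The simulation changed 200 of 17841 genes and gave each gene the same spread in all groups. In the data 15% of genes were called and the colchicine libraries spread more widely, so that share cannot be carried over to these chains. An uncalled chain may still differ, and how far depends on its own standard error. On the log2 scale that error was 0.09 for Col4a4 and 0.37 for Col10a1.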
